A study of Mus musculus with 6 samples.

Results

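Transcripts of CTCF, cohesin and condensin were followed in primary mouse embryonic fibroblasts with and without HAT1. The 10 genes were taken by symbol from the table of all genes: Ctcf, the cohesin genes Smc3, Rad21, Stag1 and Nipbl, and the condensin genes Smc2, Smc4, Ncaph, Ncapg and Ncapd2. They are 10 of the 17512 genes in the table, and all 10 were expressed well enough to enter the test of 14773 genes.

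Cohesin and condensin are ring-shaped complexes built on pairs of SMC (structural maintenance of chromosomes) ATPases, and both fold DNA by pulling it into loops. Cohesin forms the loops of interphase chromosomes, which stop where the zinc finger protein CTCF is bound, and it also holds sister chromatids together from S phase until anaphase. Condensin compacts chromosomes for mitosis. In dividing fibroblasts, cohesin and CTCF are needed throughout the cell cycle, while condensin I reaches the chromosomes only after the nuclear envelope has broken down.

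The cells were primary mouse embryonic fibroblasts (pMEFs), grown from mid-gestation embryos after removal of the internal organs, on the C57bl6 background, with no treatment given in the labels. HAT1, which acetylates new histone H4 before its assembly into chromatin, was intact in the 3 HAT1 WT lines (36, 47 and 78, HAT1+/+) and knocked out in the 3 HAT1 KO lines (33, 41 and 72, HAT1-/-). Each line was sequenced once, to between 67720628 and 98786746 counts. The labels do not say whether lines shared a litter, so the p-values measure only the spread between these lines. The study asked whether lost transcription could account for regions that became less accessible without HAT1.

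Levels are given in CPM, counts scaled to one common library size after TMM, which centres the libraries on each other. Hat1 itself was at 17.4, 23.0 and 20.1 CPM in HAT1 WT lines 36, 47 and 78 and at 10.2, 10.0 and 10.3 CPM in HAT1 KO lines 33, 41 and 72 (adjusted p = 0.0376 in edgeR). The genotypes were not balanced for sex-linked expression. The summed level of 4 Y-linked genes was 182.8 and 159.5 CPM in WT lines 36 and 47 but 2.33 CPM in WT line 78 and at most 0.118 CPM in the KO lines. Sequencing lane was uneven too, with WT line 47 and KO lines 33 and 72 on lane 6, WT line 78 and KO line 41 on lane 7, and WT line 36 alone on lane 8. KO line 72 correlated least with the other lines, at a mean Pearson r of 0.958 across genes against at least 0.974 for the rest. All 10 fibroblast markers were present, led by Col1a1, and their summed level overlapped between the genotypes (71136 to 76524 CPM in HAT1 WT, 57707 to 89787 CPM in HAT1 KO). All 10 macrophage and blood markers were lower in HAT1 KO, summing to 4855 to 5257 CPM in HAT1 WT and 2360 to 2892 CPM in HAT1 KO, and their part in the results below was not tested. The endothelial markers summed to 11.2 to 12.5 CPM in HAT1 WT and 8.87 to 12.3 CPM in HAT1 KO, and 2 of the 4 tested, Pecam1 and Cdh5, were below 1 CPM in every line and lower in every KO line. In RNA of a whole culture, fewer cells of one kind and less RNA per cell cannot be told apart.

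The 3 subunits specific to condensin I had the highest means relative to HAT1 WT, and of the 10 genes only Ncapg had a 95% interval that did not hold 0. All 5 condensin genes had positive log2 fold changes, from 0.19 for Smc4 to 0.72 for Ncapg, with a median of 0.55, while 51.5% of all tested genes were positive and their median was 0.01. The 5 genes of cohesin and CTCF ran from -0.29 for Nipbl to 0.15 for Rad21, with a median of 0.01. None of the 10 passed the threshold of 0.05 after adjustment in the quasi-likelihood test of edgeR. In that test 0.528% of all tested genes passed as lower in HAT1 KO and 0 genes passed as higher. None of the 10 passed it in the DESeq2 Wald test or in voom with sample quality weights. At an unadjusted p-value under 0.05, 1 gene (Ncapg) was higher in edgeR, against 5.88% of all tested genes in that direction, and 3 genes (Ncaph, Ncapg and Ncapd2) were higher in both DESeq2 and voom, against 7.52% and 7.42% of all genes with a p-value there in that direction. None of the 10 genes was lower at that level in edgeR, where 8.77% of all genes were. Every KO line lay below every WT line for Nipbl alone, which 12.4% of all tested genes also showed, and for none of the 10 genes did every KO line lie above every WT line, which 9.59% of all tested genes showed.

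**Figure D1:**
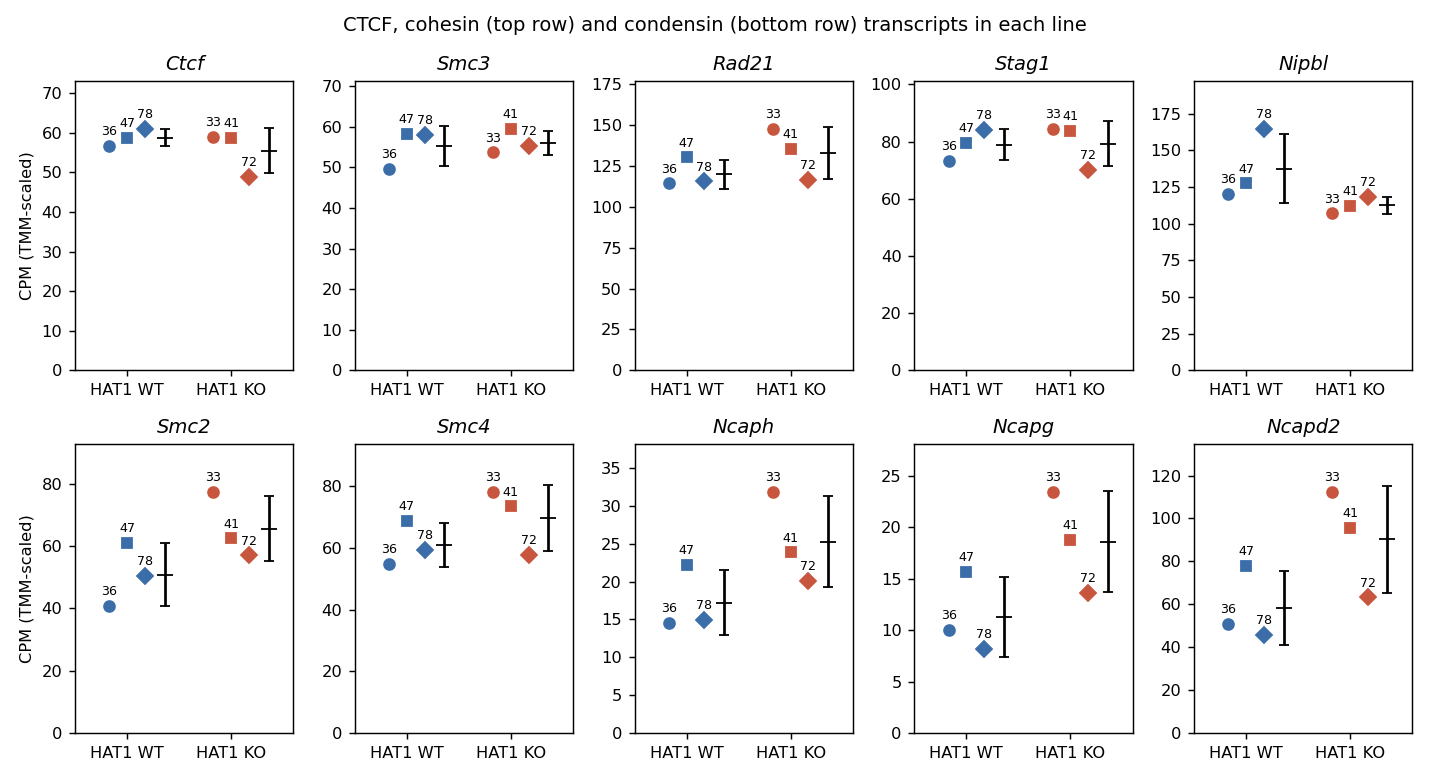
CPM of the 10 genes in each line (points, labelled by line number; blue, HAT1 WT; red, HAT1 KO) with the mean and SD of 3 lines (black). In the bottom row WT line 47 lies above KO line 72 for all 5 condensin genes, and in the top row Nipbl is the only gene without overlap between the genotypes.

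The 3 subunits found only in condensin I showed the largest differences among the 10 genes. Ncapg, a HEAT-repeat subunit, lies on the plus strand of chromosome 5 from 45669919 to 45700546 in GRCm38 and has 17 exon blocks. It was measured at 10.1, 15.6 and 8.18 CPM in WT lines 36, 47 and 78 and at 23.5, 18.8 and 13.6 CPM in KO lines 33, 41 and 72. KO lines 33 and 41 were above all WT lines, and KO line 72 lay between WT line 47 and the other WT lines. The mean was 11.3 ± 3.88 CPM in HAT1 WT and 18.6 ± 4.93 CPM in HAT1 KO (SD, n = 3 each), a 1.65-fold difference with a 95% interval from 1.00 to 2.72. The log2 fold change of 0.72 (SE 0.30) had an unadjusted p-value of 0.0491 in edgeR (adjusted p-value 0.338). Counts of Ncapg could in part belong to Lcorl, which overlaps its exons on the opposite strand over 944 bases, since use of strand in counting was not stated.

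Ncapd2, the other HEAT-repeat subunit of condensin I, was the most abundant of these 3 per unit of exon length. It lies on the minus strand of chromosome 6 from 125168007 to 125191701. WT lines 36, 47 and 78 had 51.0, 77.9 and 45.6 CPM, and KO lines 33, 41 and 72 had 112.4, 95.4 and 63.2 CPM. The order of the lines was the same as for Ncapg, from KO line 33 at the top to WT line 78 at the bottom, with a 2.47-fold range. Its exons overlap those of Scarna10 and Gm28967 on the same strand over 472 bases. Ncapd2 had a log2 fold change of 0.64 (SE 0.28), with an unadjusted p-value of 0.0600 in edgeR (adjusted p-value 0.364).

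Ncaph, the kleisin that bridges the SMC heads of condensin I, is on the minus strand of chromosome 2 from 127103809 to 127133954. Its values were 14.5, 22.2 and 15.0 CPM in WT lines 36, 47 and 78 and 31.9, 23.9 and 20.1 CPM in KO lines 33, 41 and 72. Here too WT line 47 exceeded KO line 72, and the genotypes overlapped by that pair alone. Ncaph had a log2 fold change of 0.55 (SE 0.23), with an unadjusted p-value of 0.0537 in edgeR (adjusted p-value 0.350).

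Smc2 and Smc4 are the ATPases shared by condensin I and condensin II. Smc2, on chromosome 4 from 52439243 to 52488260, was at 40.8, 61.1 and 50.4 CPM in WT lines 36, 47 and 78 and at 77.4, 62.5 and 57.0 CPM in KO lines 33, 41 and 72. Smc4, on chromosome 3 from 69004738 to 69034623, was at 54.7, 68.8 and 59.4 CPM in the WT lines and at 78.1, 73.4 and 57.7 CPM in the KO lines, in the same order. The spread among lines was narrower for both than for the condensin I subunits, and KO line 72 had less Smc4 than WT line 78. Their log2 fold changes were 0.37 (SE 0.18) for Smc2 and 0.19 (SE 0.14) for Smc4, and adjusted p was 0.408 and 0.574 in edgeR. The 95% interval reached from 0.96-fold to 1.74-fold for Smc2 and from 0.90-fold to 1.45-fold for Smc4.

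The condensin differences depended on which lines were compared. Without KO line 72 the log2 fold changes were 0.92 for Ncapg, 0.85 for Ncapd2, 0.71 for Ncaph, 0.47 for Smc2 and 0.33 for Smc4, and all 5 had an unadjusted p-value under 0.05 in edgeR, the largest being 0.0452 for Smc2. Without KO line 33 the same 5 values were 0.52, 0.45, 0.35, 0.24 and 0.11, and none had an unadjusted p-value under 0.05. Without WT line 47 they were 1.04, 0.91, 0.79, 0.53 and 0.30. Without KO line 41, WT line 36 or WT line 78 none of the 5 had one under 0.05 either. The number of all tested genes under 0.05 in either direction also differed between these fits. It was 2164 of 14773 with all lines, 2786 of 15037 without KO line 72 and 1859 of 15013 without KO line 33. Without WT line 47 it was 1666 of 15003. After adjustment, the lowest p-value of any of the 10 genes in any of the 15 alternatives was 0.163.

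Within sequencing lanes the condensin differences were uneven. On lane 6, the mean of KO lines 33 and 72 over WT line 47 gave log2 ratios of 0.25 for Ncapg, 0.17 for Ncapd2, 0.23 for Ncaph, 0.14 for Smc2 and -0.02 for Smc4. On lane 7, KO line 41 over WT line 78 gave 1.203, 1.07, 0.67, 0.31 and 0.31 in the same order. With lane in the edgeR model the log2 fold changes were 0.64, 0.54, 0.42, 0.21 and 0.12, with unadjusted p-values of at least 0.151. With Y-linked expression in the model, which rests on WT line 78 against the KO lines, they were 1.19, 0.99, 0.76, 0.38 and 0.23. In that fit Ncapg had an unadjusted p-value of 0.0321 and an adjusted p-value of 0.364.

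The promoters of the condensin genes are shown because all 5 genes had KO line 33 highest, then KO line 41, then WT line 47. RefSeq windows on GRCm38.p6, from 250 bases before the start of transcription to 50 bases after it, were given for 7 of the 10 genes (all but Smc4, Rad21 and Nipbl). A few motifs known from genes of the cell cycle were searched on both strands: CHR (cell cycle genes homology region, TTTGAA), the CCAAT box (CCAAT) and E2F sites (TTTGGCGC, TTTCCCGC, TTTGCCGC or TTTCGCGC). The 250 bases before the start are printed 5′ to 3′ on the strand of the gene, with every match in capitals, for Smc2 (chr4:52438971-52439220, plus strand), Ncapg (chr5:45669675-45669924, plus strand), Ncapd2 (chr6:125191587-125191836, minus strand) and Ncaph (chr2:127133955-127134204, minus strand). Smc3 (chr19:53600146-53600395, plus strand) is shown as a cohesin gene with another line order. Its levels overlapped between the genotypes, as those of all 5 condensin genes did.
Ncapg: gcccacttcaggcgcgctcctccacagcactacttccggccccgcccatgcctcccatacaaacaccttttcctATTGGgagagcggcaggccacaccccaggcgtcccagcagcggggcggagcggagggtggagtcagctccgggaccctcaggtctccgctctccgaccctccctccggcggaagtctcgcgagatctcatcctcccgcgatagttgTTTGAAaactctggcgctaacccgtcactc
Ncapd2: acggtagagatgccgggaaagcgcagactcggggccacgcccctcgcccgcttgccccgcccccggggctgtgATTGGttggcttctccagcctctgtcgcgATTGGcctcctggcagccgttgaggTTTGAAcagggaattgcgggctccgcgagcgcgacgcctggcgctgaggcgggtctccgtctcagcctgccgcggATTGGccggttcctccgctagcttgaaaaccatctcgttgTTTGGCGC
Smc2: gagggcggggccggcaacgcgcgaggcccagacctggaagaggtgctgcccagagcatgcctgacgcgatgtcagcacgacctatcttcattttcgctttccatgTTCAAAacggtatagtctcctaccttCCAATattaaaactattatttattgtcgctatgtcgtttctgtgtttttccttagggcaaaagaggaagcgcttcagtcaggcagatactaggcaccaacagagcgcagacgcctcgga
Ncaph: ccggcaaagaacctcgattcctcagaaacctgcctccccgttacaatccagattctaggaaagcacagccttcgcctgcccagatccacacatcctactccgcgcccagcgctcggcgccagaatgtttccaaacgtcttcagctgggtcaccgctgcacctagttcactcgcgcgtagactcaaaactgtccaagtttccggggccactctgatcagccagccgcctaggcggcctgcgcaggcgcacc
Smc3: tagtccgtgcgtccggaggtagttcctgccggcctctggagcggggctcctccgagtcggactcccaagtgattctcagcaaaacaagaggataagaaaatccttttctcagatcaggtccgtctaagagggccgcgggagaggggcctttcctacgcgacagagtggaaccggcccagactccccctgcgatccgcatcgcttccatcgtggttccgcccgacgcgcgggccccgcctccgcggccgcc

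In Ncapg the CHR match began 30 bases before the start, and a CCAAT box on the other strand began 176 bases before it. Ncapd2 held 3 CCAAT boxes, whose first bases were 177, 148 and 48 bases before the start, a CHR match 123 bases before it and an E2F match (TTTGGCGC) 8 bases before it. Smc2 held a CCAAT box 119 bases and a CHR match 145 bases before its start. Within the 50 bases after the start, not printed here, Smc2 held another CHR match and Ncapg an E2F match. The windows of Ncaph and Smc3 held none of these letters. A CHR match was found in 17.9%, a CCAAT box in 37.4% and an E2F match in 2.26% of the 32851 windows of this length. Among the windows of tested genes these shares were 12.3%, 37.2% and 3.71%. Outside condensin, Ctcf held a CHR match 161 bases before its start, and Stag1 held a CCAAT box and an E2F match. Levels of Ctcf, Stag1, Smc3 and all the condensin genes overlapped between the genotypes, and any part of these motifs in them was not tested. These matches describe the letters of each window and were not measured as binding sites.

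Ctcf, whose zinc finger protein anchors loops and separates chromatin domains, had nearly the same level in 5 of the 6 lines. It is on the plus strand of chromosome 8 from 105636568 to 105682922, where Agrp and Gm5914 overlap its exons on the opposite strand. WT lines 36, 47 and 78 had 56.7, 58.7 and 60.9 CPM, against 58.9, 58.8 and 48.9 CPM in KO lines 33, 41 and 72. KO line 72 was the lowest of all lines, and KO lines 33 and 41 lay inside the WT range. The log2 fold change was -0.08 (SE 0.09, adjusted p = 0.722 in edgeR), and the interval of the KO to WT ratio ran from 0.81-fold to 1.10-fold. Without KO line 72 it was 0.01.

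Smc3, Rad21 and Stag1 encode parts of the cohesin ring. Smc3, one of its ATPases, lies on chromosome 19 from 53600398 to 53645833 and was at 49.6, 58.2 and 58.1 CPM in WT lines 36, 47 and 78 and at 53.7, 59.4 and 55.2 CPM in KO lines 33, 41 and 72. All KO lines but line 41 were inside the WT range. Its log2 fold change was 0.02 (SE 0.09, adjusted p = 0.929 in edgeR), and the ratio had an interval of 0.88-fold to 1.17-fold.

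Rad21, the kleisin that closes the ring and is cut by separase at anaphase, is on the minus strand of chromosome 15 from 51962240 to 51991747. It was at 114.4, 130.4 and 115.6 CPM in WT lines 36, 47 and 78 and at 147.6, 135.6 and 116.3 CPM in KO lines 33, 41 and 72. Rad21 was the only cohesin gene of the 10 with the line order of Smc2 and Ncaph. Rad21 had a log2 fold change of 0.15 (SE 0.11, adjusted p = 0.572 in edgeR), and it was 0.25 with an unadjusted p-value of 0.0303 without KO line 72 but 0.07 with one of 0.544 without KO line 33.

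Stag1 encodes one of a pair of exchangeable subunits that dock on Rad21 and bind CTCF. It spans chromosome 9 from 100597798 to 100959375 on the plus strand. The WT values were 73.1, 79.5 and 84.1 CPM in lines 36, 47 and 78, and the KO values were 84.3, 83.6 and 70.0 CPM in lines 33, 41 and 72. The KO lines spanned the whole WT range. Stag1 thus had a log2 fold change of 0.01 (SE 0.10, adjusted p = 0.982 in edgeR) and an interval from 0.85-fold to 1.18-fold.

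Nipbl, which loads cohesin onto DNA and drives its loop extrusion, was the one gene of the 10 with a lower level in all KO lines. It lies on the minus strand of chromosome 15 from 8290617 to 8444463. It was measured at 120.5, 127.5 and 164.4 CPM in WT lines 36, 47 and 78 and at 106.9, 112.1 and 118.4 CPM in KO lines 33, 41 and 72. WT line 78 stood well above the rest, and the gap between WT line 36 and KO line 72 was small. The mean was 137.4 ± 23.6 CPM in HAT1 WT and 112.5 ± 5.77 CPM in HAT1 KO (SD, n = 3 each). For Nipbl the log2 fold change came to -0.29 (SE 0.13), with an unadjusted p-value of 0.0621 in edgeR (adjusted p-value 0.368), and an exact permutation test over lines gave 0.1, which no split of 3 against 3 can go below. The log2 fold change was -0.13 without WT line 78. It was -0.55 with Y-linked expression in the model, a fit that rests on WT line 78 alone against the KO lines.

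Levels of different genes were compared as CPM per kb of exon. In HAT1 WT, Rad21 was the highest of the 10 at 28.4 ± 2.10, followed by Nipbl (14.6 ± 2.504), Ctcf (12.1 ± 0.437), Smc4 (11.7 ± 1.38), Smc3 (9.98 ± 0.895), Ncapd2 (9.28 ± 2.77), Smc2 (9.27 ± 1.86), Stag1 (6.70 ± 0.469), Ncaph (3.998 ± 0.997) and Ncapg (1.598 ± 0.549, all CPM per kb, SD, n = 3). Neighbours from Ctcf to Smc2 overlapped in their WT ranges, and the other neighbours did not. Rad21 stood at the 90.9th percentile of all tested genes and Ncapg at the 37.3rd. In HAT1 KO, Ncapd2 came second at 14.4 ± 3.99 CPM per kb (SD, n = 3). When the longest transcript of each gene was used as its length, 5 of the 10 genes kept their WT rank, and Stag1 went from 6.70 to 12.8 CPM per kb.

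**Figure D2:**
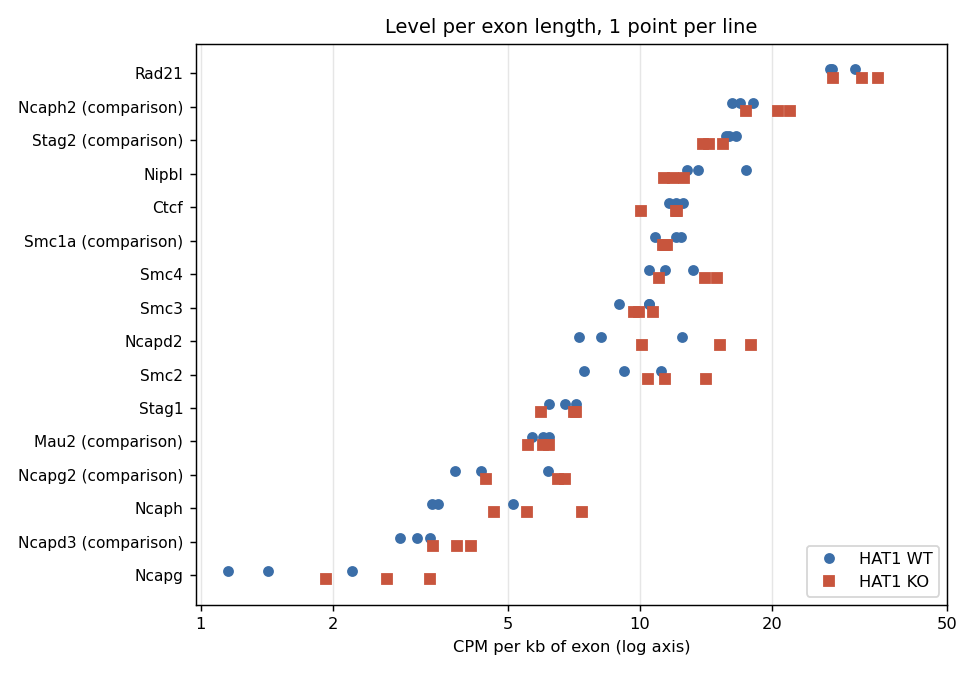
CPM per kb of exon (log axis) of the 10 genes and of 6 partner subunits marked as comparison, with 1 point per line (blue circles, HAT1 WT; red squares, HAT1 KO), ordered by the HAT1 WT mean. Rad21 is the highest and Ncapg the lowest, and the 3 genes specific to condensin I spread more between lines than the cohesin genes.

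The other genes of the machinery were taken from lists by function, chosen with earlier results of these data known. Of 39 such genes, 37 were tested, and 24 had a positive and 13 a negative log2 fold change, with a median of 0.12. None passed the adjusted threshold in edgeR or voom, and 5 did in DESeq2 (Cdca5, Esco2, Sgo2a, Espl1 and Mcph1, all higher in HAT1 KO), against 1.57% of the genes with an adjusted p-value there in that direction. Every KO line lay above every WT line for 9 of the 37, against 9.59% of all tested genes. For 4 of the 37 every KO line lay below, against 12.4%. At an unadjusted p-value under 0.05 in edgeR, 11 were higher and 1 was lower, where 5.88% and 8.77% of all tested genes were. With one line left out the number higher was 5 without KO line 33, 5 without KO line 41, 13 without KO line 72, 4 without WT line 36, 12 without WT line 47 and 5 without WT line 78. It was 2 with none lower when lane was in the model, and became 8 higher and 1 lower with Y-linked expression in the model.

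**Figure D3:**
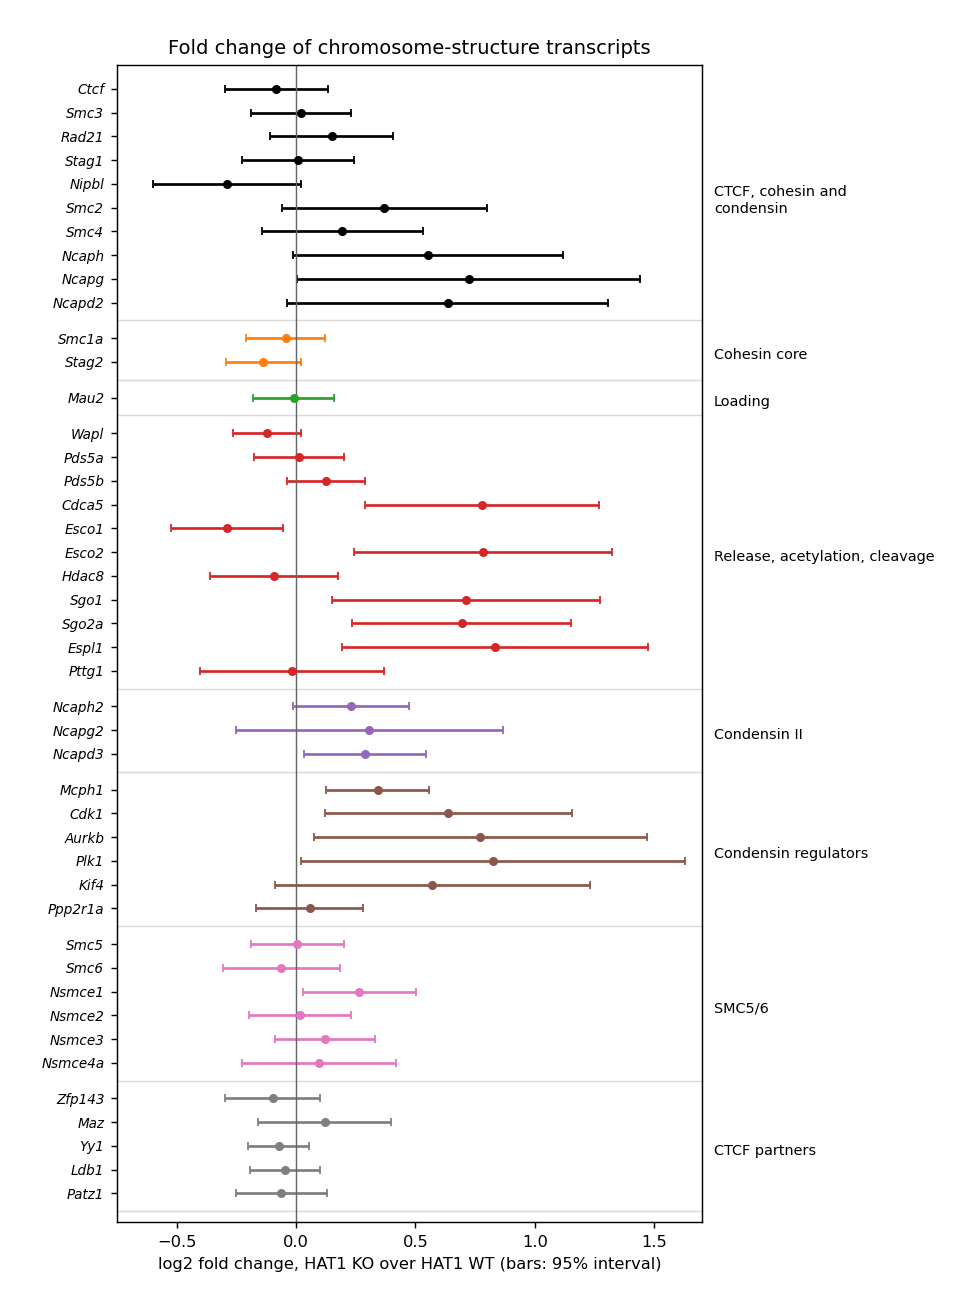
Log2 fold change of HAT1 KO over HAT1 WT with its 95% interval for the 10 genes (black) and other tested genes of the machinery (colours, by list). The intervals of Ctcf, Smc3, Rad21 and Stag1 all cross 0 within 0.41 on either side, and the condensin I intervals are wide and lie almost wholly above 0.

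The remaining subunits of the ring were measured too. Smc1a, the ATPase partner of Smc3, had a log2 fold change of -0.04 (SE 0.07). Stag2, the alternative to Stag1, was at 129.8, 131.7 and 136.8 CPM in WT lines 36, 47 and 78 and at 118.9, 127.9 and 115.4 CPM in KO lines 33, 41 and 72. All KO lines were below all WT lines, which 12.4% of all tested genes also showed. For Stag2 adjusted p was 0.402 in edgeR, for a log2 fold change of -0.14 (SE 0.07). Both genes are X-linked, and the lines were uneven in sex-linked expression. Mau2, the partner of Nipbl in cohesin loading, had a log2 fold change of -0.01 (SE 0.07). The meiotic subunits Smc1b, Rec8 and Stag3 were at 0.229, 0.105 and 0.848 CPM in HAT1 WT, and none had an unadjusted p-value under 0.05.

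Of 11 genes that release, acetylate, guard or cut cohesin, none passed the adjusted threshold in edgeR. At an unadjusted p-value under 0.05, 5 were higher and 1 was lower, where 5.88% and 8.77% of all tested genes were. With one line left out between 3 and 5 of them were higher, and with lane in the model 2 were. The higher ones were Cdca5 (sororin, which protects cohesion), Esco2 (which acetylates Smc3 in S phase), Sgo1 and Sgo2a (shugoshins, which protect centromeric cohesin) and Espl1 (separase, which cuts Rad21). Cdca5 was at 4.95, 7.68 and 5.52 CPM in WT lines 36, 47 and 78 and at 11.9, 10.3 and 8.97 CPM in KO lines 33, 41 and 72, so every KO line was above every WT line. Its log2 fold change was 0.78 (SE 0.20, adjusted p = 0.185 in edgeR). The values were 0.78 (SE 0.22) for Esco2, 0.71 (SE 0.23) for Sgo1, 0.69 (SE 0.19) for Sgo2a and 0.83 (SE 0.26) for Espl1, with adjusted p-values between 0.197 and 0.252, and none of these 4 genes overlapped between the genotypes. Every KO line was above every WT line for 6 of the 11 genes, against 9.59% of all tested genes. For 2 of the 11 every KO line was below, against 12.4%. Sgo2a shares 2455 exon bases with Kctd18 on the opposite strand.

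Esco1, which acetylates Smc3 outside S phase, was the lower gene of this list. It was at 15.5, 16.6 and 18.1 CPM in WT lines 36, 47 and 78 and at 14.5, 13.7 and 12.9 CPM in KO lines 33, 41 and 72. This gave a log2 fold change of -0.29 (SE 0.10), with an unadjusted p-value of 0.0229 in edgeR (adjusted p-value 0.264), and the unadjusted p-value was above 0.05 without KO line 41, KO line 72, WT line 47 or WT line 78. Wapl, which opens the ring to release cohesin, was at 112.9, 120.3 and 121.3 CPM in the WT lines and at 106.4, 109.2 and 110.6 CPM in the KO lines, again without overlap, with a log2 fold change of -0.12 (SE 0.06) and an adjusted p of 0.415. Every KO line was below every WT line for 12.4% of all tested genes. Pds5a, Hdac8 and Pttg1 had log2 fold changes between -0.09 and 0.01. Pds5b had one of 0.12 (SE 0.07), with every KO line above every WT line.

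Condensin II, which is in the nucleus throughout interphase, shares Smc2 and Smc4 and has 3 subunits of its own. All 3 had positive log2 fold changes, of 0.23 (SE 0.10) for Ncaph2, 0.31 (SE 0.23) for Ncapg2 and 0.29 (SE 0.11) for Ncapd3. Ncaph2 shares 1364 exon bases with Sco2 and Tymp on the opposite strand. Ncapd3 was at 22.4, 24.5 and 26.3 CPM in WT lines 36, 47 and 78 and at 32.6, 30.2 and 26.6 CPM in KO lines 33, 41 and 72, without overlap (adjusted p = 0.300 in edgeR). Every KO line was above every WT line for 9.59% of all tested genes. The condensin I subunits made up 36.9% ± 4.42 of the summed per-length level of the subunits specific to either complex in HAT1 WT and 43.1% ± 3.43 in HAT1 KO (SD, n = 3 each). These shares overlapped, with an exact permutation p-value of 0.2.

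All 6 regulators of condensin had positive log2 fold changes. Mcph1, which holds condensin II off chromosomes in interphase, was at 16.1, 18.6 and 17.4 CPM in WT lines 36, 47 and 78 and at 23.1, 20.8 and 22.2 CPM in KO lines 33, 41 and 72. All KO lines were above all WT lines, with a log2 fold change of 0.34 (SE 0.09) and an adjusted p-value of 0.188 in edgeR. The mitotic kinases Cdk1, Aurkb and Plk1 had log2 fold changes of 0.64 (SE 0.21), 0.77 (SE 0.29) and 0.82 (SE 0.33), with unadjusted p-values of 0.0232, 0.0351 and 0.0462. Of the 6 regulators listed, 4 passed an unadjusted p of 0.05 in edgeR, all upward, against 5.88% of all tested genes in that direction. Ppp2r1a had a log2 fold change of 0.06. The number of regulators passing was 1 without KO line 33, KO line 41, WT line 36 or WT line 78. It was 5 without KO line 72 or WT line 47, and 0 with lane in the model.

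**Figure D4:**
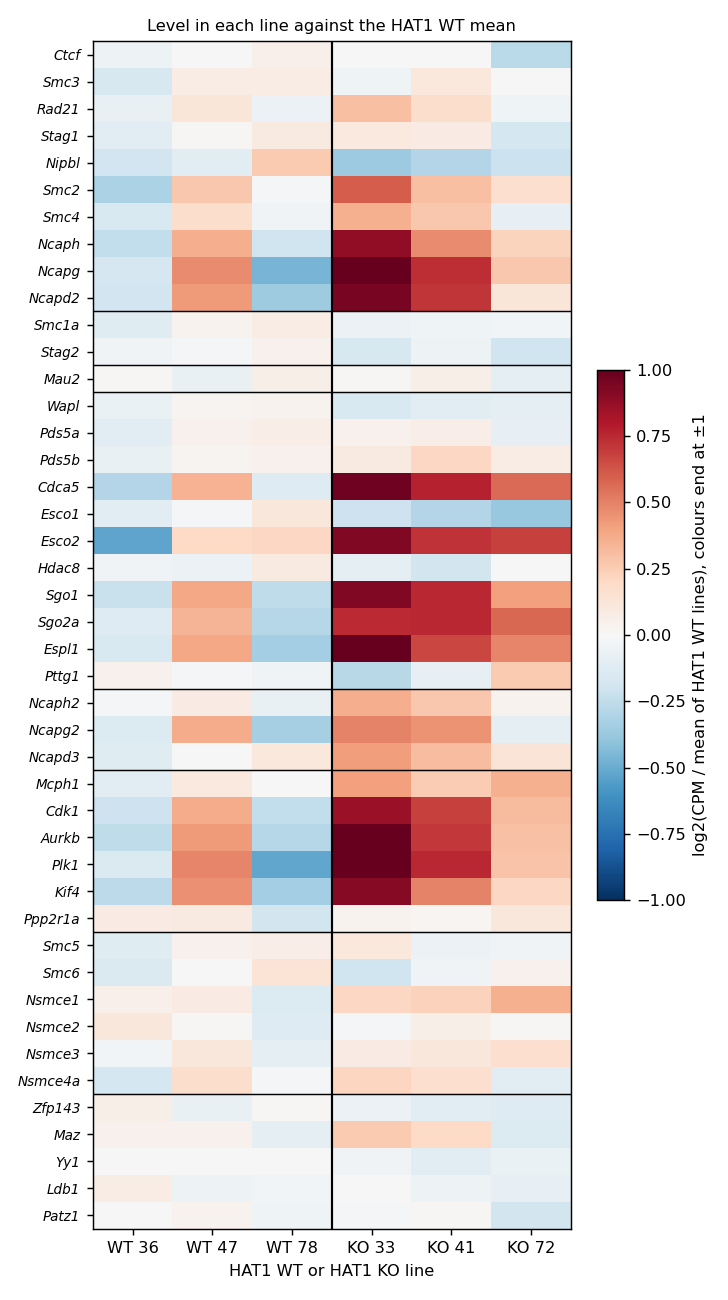
log2 of the CPM in each line over the mean of the HAT1 WT lines (red, above; blue, below; colours end at 1 on either side) for the 10 genes and the rest of the machinery, with black lines between lists. The condensin genes, Cdca5, Esco2, Sgo1, Sgo2a, Espl1 and the mitotic kinases are darkest in KO lines 33 and 41 and paler in KO line 72, and WT line 47 is the reddest of the WT lines.

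The third SMC complex, SMC5/6, which acts in DNA repair, and the partners of CTCF showed smaller values. Of the 6 SMC5/6 genes, Nsmce1 was higher at an unadjusted p-value of 0.0331, with a log2 fold change of 0.27 (SE 0.10) and an adjusted p of 0.301 by edgeR, and the others lay between -0.06 and 0.12. Zfp143, Maz, Yy1, Ldb1 and Patz1, which are DNA-binding or looping partners of CTCF, lay between -0.10 and 0.12, with none at an unadjusted p-value under 0.05. Yy1 was at 69.8, 69.6 and 70.1 CPM in WT lines 36, 47 and 78 and at 68.0, 64.6 and 66.6 CPM in KO lines 33, 41 and 72, with an adjusted p-value of 0.575 in edgeR. Every KO line was below every WT line for Yy1 and above for Nsmce1, as for 12.4% and 9.59% of all tested genes.

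The line order of condensin was also that of genes of G2 phase and mitosis, and of the subunits specific to condensin II. Averaged over standardized log2 CPM, the 5 condensin genes placed the lines as KO 33, KO 41, WT 47, KO 72, WT 78 and WT 36, at 1.36, 0.68, 0.31, -0.26, -0.97 and -1.13 SD units. The condensin II subunits placed them in the same order, at 1.31, 0.90, -0.04, -0.39, -0.85 and -0.93. A list of 12 genes of G2 and mitosis gave the same order, at 1.36, 0.64, 0.35, -0.20, -1.06 and -1.09. Its summed level was 368.0 to 594.3 CPM in HAT1 WT and 520.0 to 855.0 CPM in HAT1 KO, so the genotypes overlapped. All 12 of its genes had positive log2 fold changes, with a median of 0.68 and Ccnb1 furthest from 0 at 0.80 (SE 0.35). Of these, 4 had an unadjusted p-value under 0.05 in edgeR, against 5.88% of all tested genes in that direction. That count was 1 without KO line 33, KO line 41, WT line 36 or WT line 78, 10 without KO line 72 and 11 without WT line 47, and 0 with lane in the model.

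A list of 12 S phase genes separated the genotypes, with summed levels of 503.2 to 696.4 CPM in HAT1 WT and 765.8 to 839.3 CPM in HAT1 KO. All 12 had positive log2 fold changes, with a median of 0.47 and Rrm2 furthest from 0 at 0.96 (SE 0.20). Of these, 8 had an unadjusted p-value under 0.05 in edgeR, against 5.88% of all tested genes in that direction. Without KO line 72, 9 of the 12 had one. The count was 4 without KO line 33, WT line 36 or WT line 78, 5 without KO line 41 and 12 without WT line 47, and it was 3 with lane and 4 with Y-linked expression in the model. None of the genes of either list passed the adjusted threshold in edgeR or voom. In DESeq2 4 S phase genes and 1 of G2 and mitosis did, all higher in HAT1 KO. There 1.57% of the genes with an adjusted p-value passed in that direction. The 5 genes of cohesin and CTCF placed the lines in another order, with WT line 78 highest at 0.67 SD units and KO line 72 lowest at -0.92. The part of the share of dividing cells in the condensin values was not tested.

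**Figure D5:**
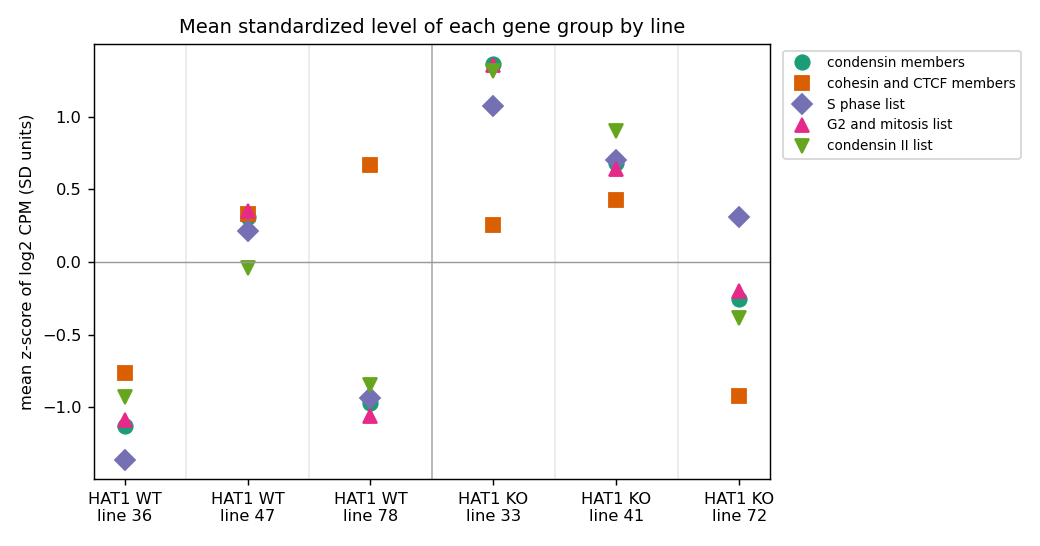
Mean standardized log2 CPM (SD units over the 6 lines) of the condensin genes, the cohesin and CTCF genes, and lists for S phase, G2 and mitosis, and condensin II, in each line. The condensin points lie close to those of G2 and mitosis in every line, and the cohesin and CTCF points depart from them most in WT line 78, at 0.67 against -1.06.

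The tested genes outside the 10 whose pattern over the 6 lines was most like the mean of the condensin genes were Gemin2, Cdca3, Oip5, Nsl1 and Kif14. Their Pearson r with that mean was between 0.995 and 0.998 over 6 lines, and 236 tested genes had an r above 0.95. For the mean of the cohesin and CTCF genes they were Adtrp, Luc7l2, Mettl5, Cnot6l and Fam83b, with r between 0.982 and 0.995 and 28 genes above 0.95. With 6 points that share library depth and scaling, these values only describe the libraries.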

How the data were processed

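RNA-seq was made from total RNA of 3 HAT1 WT and 3 HAT1 KO lines with a TruSeq RNA kit, grouped by the genotype in the labels. The authors deposited raw counts per gene and library, with no normalization, beside their own comparison of the genotypes (log fold change, log CPM, F, p and q), which was not used. The submitters' processing notes name edgeR and mm10, and the aligner and counter were not given in the sources used here. Positions and exon lengths are from GENCODE M21 (GRCm38), in which all 17512 identifiers were found, and 24 symbols turned into dates were restored from them.

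Genotypes were compared on these counts by edgeR 4.0.16 under R 4.3.3 (filterByExpr, TMM, glmQLFit and glmQLFTest with genotype alone, two-sided), with Benjamini-Hochberg adjustment over 14773 genes and a threshold of 0.05. Standard errors are the size of the log2 fold change over the square root of F, and 95% intervals use the degrees of freedom of the fit. The fit was tested on simulated counts. DESeq2 1.42.0 and voom of limma 3.58.1 were alternatives, with others given in the closing section. Total counts per library were 67720628 to 98786746. Of the counts from 1 to 10, 75.1% were even, so many fragments may be counted double, and halved counts were tried. At this depth the spread of the lines (common dispersion 0.0747) limits precision more than counting error.

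The genes and lists were chosen with earlier results of these data known. Named genes were the 10 genes, the genes of the machinery lists, the gene furthest from 0 in each proliferation list, the 5 genes most like each mean, and Hat1. Rad21l and Ctcfl were listed but not analysed here.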

Additional observations from a re-analysis of the deposited data

How the results depend on the processing

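Over 15 alternatives, the 10 genes gave 150 log2 fold changes, of which 140 kept their direction and stayed on the same side of the adjusted threshold and 10 changed sign, all of Ctcf, Smc3 or Stag1 and none of a condensin gene. Smc3 was -0.0408 with lane and -0.0497 with Y-linked expression in the model, and Stag1 was -0.0285 and -0.0854. Leaving out one line gave -0.126 to 0.0136 for Ctcf (above 0 without KO line 72), -0.0472 to 0.0669 for Smc3 and -0.0405 to 0.101 for Stag1. The count at an adjusted p-value under 0.05 was 0 throughout in edgeR, DESeq2 and voom. Over all tested genes that count was 78 in the main fit, but 0 without KO line 33, WT line 36 or WT line 47. It was 2 with lane in the model, 4 without WT line 78 and 6 without KO line 41. In those fits a count of 0 for the 10 genes was all but fixed in advance. The count at an unadjusted p-value under 0.05 was 1, and became 3 with the DESeq2 Wald test and with voom, 2 without a filter (Ncaph and Ncapg), 2 with Y-linked expression in the model (Nipbl and Ncapg), and 0 with library size alone, with a mean of at least 50 counts, with lane in the model and with halved counts. Leaving out one line gave 0 to 6, with 6 without KO line 72 and 4 without WT line 47. It gave 0 without KO line 33, KO line 41 or WT line 78, and Nipbl alone without WT line 36. Over all tested genes the unadjusted count also moved, from 2164 in the main fit to 2786 without KO line 72. That count was 1859 without KO line 33, 1666 without WT line 47 and 931 with lane in the model. The cause was not tested. For Hat1 the log2 fold change stayed between -1.10 and -0.88 in all 15, and the adjusted call was lost in 8, with adjusted p-values of 0.529 with lane and 0.254 with Y-linked expression in the model. No paired analysis was possible because the line numbers of the genotypes are not shared. The lowest count of any of the 10 genes in any library was 759.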

Other observations

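Shares of partner subunits were set side by side on the per-length level. Esco2 made up 13.8%, 19.9% and 18.7% of the summed level of Esco1 and Esco2, the enzymes that acetylate Smc3, in WT lines 36, 47 and 78 and 32.0%, 30.3% and 31.0% in KO lines 33, 41 and 72. The genotypes did not overlap, and an exact permutation test gave p = 0.1, which 3 lines against 3 cannot go below. Every KO line had more Esco2 and less Esco1 than every WT line, so this share had to separate the genotypes. Its p-value therefore adds nothing to the values of the genes. Stag1 made up 29.4% ± 0.952 of Stag1 and Stag2 in HAT1 WT and 31.5% ± 1.68 in HAT1 KO (SD, n = 3 each), with an exact permutation p-value of 0.2 and overlapping lines. Smc2 made up 44.0% ± 2.24 and 47.2% ± 2.17 of Smc2 and Smc4, and Smc3 45.9% ± 0.661 and 47.02% ± 1.21 of Smc3 and Smc1a, each with overlap. Nipbl made up 44.8% ± 3.47 of Nipbl and Wapl in HAT1 WT and 42.1% ± 0.796 in HAT1 KO, also with overlap. These pairs were chosen with the levels known, and among them the share of Esco2 alone separated the genotypes.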
